A study of Mus musculus with 33 samples.

Results

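Transcripts of 9 liver enzymes of the urea cycle and of amino acid breakdown (Cps1, Otc, Ass1, Asl, Arg1, Aass, Tdo2, Hpd and Dbt) were followed in mice through fasting, refeeding and treatment with rapamycin. The genes were chosen by symbol, which gave 11 of the 12488 probe sets on the Affymetrix MG-U74Av2 array. Asl and Tdo2 had 2 probe sets each and the other genes 1. All 11 passed the detection filter (called present on at least 3 of 33 arrays) and were among the 6568 probe sets tested.

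Liver RNA came from 33 male adult mice of unstated strain, with 1 array per mouse in 11 groups. In 1 group the mice went without food for 24 h and received no injection (n = 5). In 8 groups of 3, mice were fasted for 22 h and then given either the mTORC1 inhibitor rapamycin (10 mg/kg) or its vehicle (0.9% NaCl and 2% ethanol). They were killed 2 h later (0 h) or fed from then on for 3, 6 or 12 h. The last groups were never fasted, got the same dose or vehicle, and were killed after 24 h (n = 2 each), so their delay after injection was another one. The p-values measure the spread between these mice, and the labels name no cage, litter or collection day.

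The arrays fell into 2 sets by the share of intensities at or below 0. It was 35.1 to 40.8% on 16 arrays (set 1) and 24.2 to 28.2% on 17 (set 2). Set 1 held all uninjected fasted, vehicle 0 h, vehicle 6 h and nonfasted rapamycin arrays, 1 rapamycin 3 h array and 2 rapamycin 6 h arrays. Set 2 held the rest, so for several comparisons the set and the group cannot be told apart, and values with the set as a term in the fit stand beside calls that it changed. Comparisons within 1 set were 6 h against 0 h in vehicle mice, 12 h against 0 h in rapamycin mice, rapamycin against vehicle at 12 h, vehicle 0 h against uninjected mice, and 12 against 3 h in vehicle mice. Hepatocyte markers Alb, Ttr, Apoa1, Apob and Hnf4a were called present on all 33 arrays.

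The urea cycle turns ammonia released from amino acids into urea, and in mammals the full cycle runs mainly in hepatocytes. The opening steps, by Cps1 and Otc, lie in the mitochondrion, and the steps by Ass1, Asl and Arg1 lie in the cytosol. The other genes act on single amino acids. Tdo2 opens the tryptophan ring, Aass starts the breakdown of lysine, Hpd acts in tyrosine breakdown, and Dbt is a subunit of the complex that degrades branched-chain keto acids. In fasting, muscle protein supplies amino acids to the liver for glucose production, and several of these genes are known to respond to glucagon, glucocorticoids and dietary protein.

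The signal of most of the 9 genes was lower after refeeding. No group was kept fasted for 3, 6 or 12 h more, so food and the longer time after injection cannot be told apart. By 12 h Cps1, Asl, Arg1, Aass, Tdo2 and Hpd had fallen in vehicle mice, and Cps1, Ass1, Asl, Arg1, Aass and Tdo2 in rapamycin mice; none had risen past the threshold. In vehicle mice 3 of 11 probe sets were called lower than at 0 h after 3 h of food, 5 after 6 h and 7 after 12 h (limma with Benjamini-Hochberg adjustment over 6568 probe sets, threshold 0.05). Over all tested probe sets 22.4%, 21.1% and 35.3% were called in either direction at these times, and 2.54%, 6.9% and 9.3% were called lower. In rapamycin mice 1, 7 and 7 of the 11 were called lower, against 2.79%, 20.8% and 25% of all probe sets called in either direction and 1.2%, 10.1% and 10.4% called lower. With the set term the vehicle counts were 0 of 11 at 3 h, 5 at 6 h and 5 at 12 h (Asl, Arg1, Aass and both Tdo2 probe sets), and the rapamycin counts 0, 6 and 7. Over all probe sets that term left 118 called higher and 58 lower at 3 h in vehicle mice, and 632 and 391 at 12 h. The 3 vehicle comparisons share the 0 h vehicle mice, and the 3 rapamycin comparisons share the 0 h rapamycin mice.

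Within the urea cycle the falls that held under all alternatives at 6 and 12 h in vehicle mice were those of the last 2 enzymes, argininosuccinate lyase (Asl) and arginase (Arg1). Arg1 (93097_at), which releases urea from arginine, read 3584, 4115 and 3322 in vehicle mice at 0 h and 3412, 2985 and 3356 at 3 h. At 6 h it read 2374, 2193 and 2574, and at 12 h 2137, 2162 and 2301. All 6 arrays at 6 and 12 h lay below all 6 at 0 and 3 h. Here and below, such separations on refeeding describe the readings, and the share of all probe sets so separated is not given. Arg1 fell by 0.62 (log2, SE 0.10, adjusted p = 6.44e-05) at 6 h and by 0.73 (adjusted p = 4.51e-06) at 12 h, with limma. The 3 h value was -0.17 (95% interval -0.38 to 0.03, adjusted p = 0.225 by limma). The difference between 12 and 3 h, whose 6 arrays are all of set 2, was -0.56 (adjusted p = 0.000848 by limma). That comparison was added after seeing the data, and 3 of the 11 probe sets were called lower in it (Cps1, Arg1 and Aass), against 11% of all called in either direction.

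Rapamycin mice gave Arg1 readings close to those of vehicle mice. They were 3681, 3844 and 4104 at 0 h, 3821, 3483 and 3284 at 3 h, 2085, 2300 and 2636 at 6 h, and 2179, 2189 and 2305 at 12 h. At every time the readings of rapamycin and vehicle mice overlapped. Against 0 h the change was -0.73 at 6 h and -0.80 at 12 h (limma adjusted p = 1.50e-05 and 3.13e-06). Mice that had never fasted had Arg1 readings of 2118 and 2162 with vehicle and 2164 and 2099 with rapamycin. The vehicle pair overlapped the vehicle mice refed for 12 h, and the rapamycin pair lay just below all 3 rapamycin mice refed for 12 h. The 5 uninjected fasted mice read 3195 to 3722 with a median of 3489, overlapping the vehicle mice at 0 h.

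Asl (104566_at), which splits argininosuccinate into arginine and fumarate, read 1086, 1207 and 1112 in vehicle mice at 0 h and 938, 797 and 910 at 3 h. It read 600, 561 and 790 at 6 h and 563, 564 and 600 at 12 h. Every vehicle array after food lay below every vehicle array at 0 h. The change was -0.82 at 6 h (SE 0.21, adjusted p = 0.00605) and -0.98 at 12 h (adjusted p = 0.000809), with limma, and -0.37 at 3 h (adjusted p = 0.217, not called). In rapamycin mice Asl read 1155, 1057 and 1153 at 0 h and 404, 559 and 570 at 12 h, a change of -1.15 (limma adjusted p = 0.000293). In rapamycin mice at 6 h it read 348, 632 and 756 and fell by 1.03 on the log2 scale (limma adjusted p = 0.00120).

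The other Asl probe set (161891_r_at) did not follow the first. It was called present on 15 of 33 arrays and its group means ran from 94.0 to 160 in intensity. In vehicle mice its change at 12 h was 0.04 (95% interval -0.60 to 0.68, limma adjusted p = 0.949). In rapamycin mice it was -0.57 at 12 h (95% interval -1.21 to 0.06, limma adjusted p = 0.183). The falls in Asl rest on 104566_at alone.

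**Figure D1:**
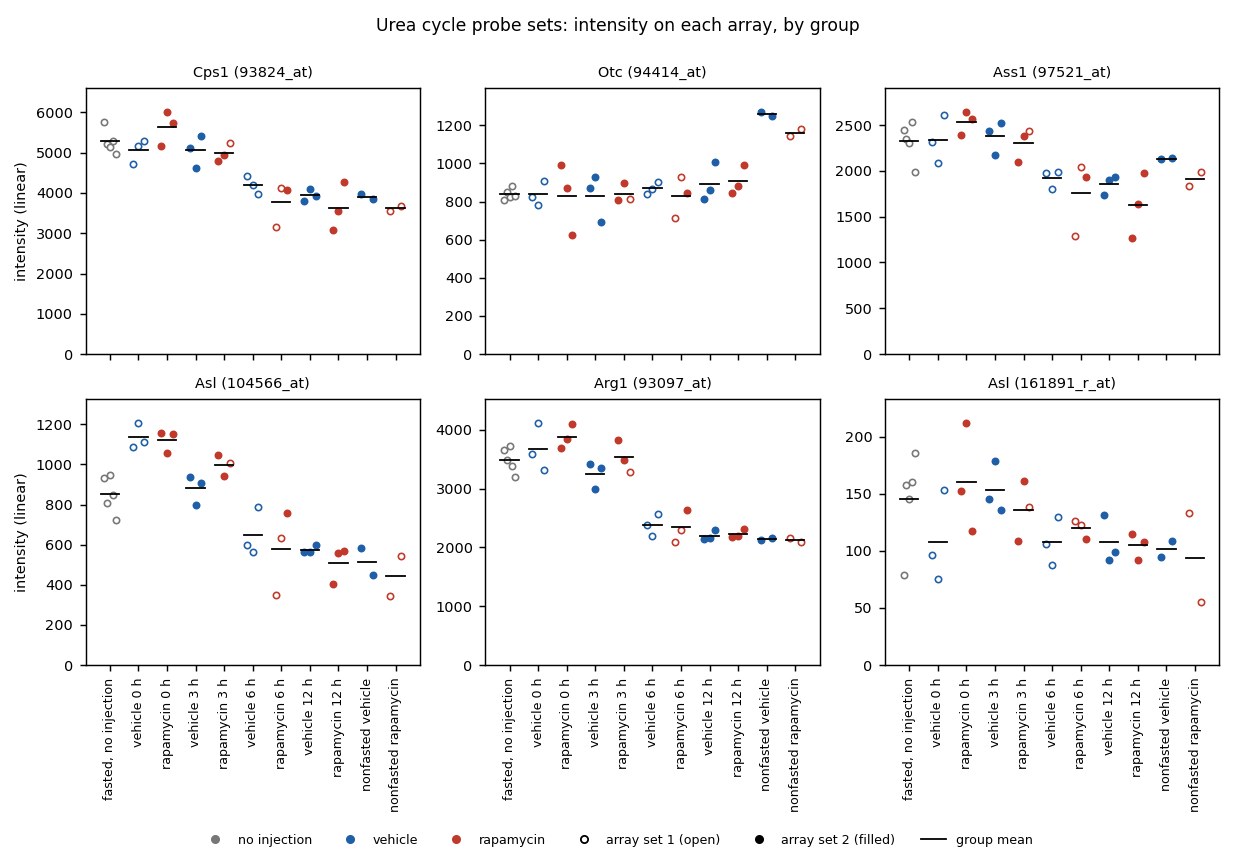
Intensity (linear scale) of the 6 urea cycle probe sets on each of 33 arrays, by group; points are arrays, open for array set 1 and filled for set 2, and bars are group means. Arg1 and Asl 104566_at step down between 3 and 6 h of refeeding with either injection, Cps1 and Ass1 less so, and Otc is highest in the 4 nonfasted mice.

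Cps1, the entry enzyme that makes carbamoyl phosphate, changed less in vehicle mice than Arg1 and Asl. Its probe set (93824_at) read 4712, 5162 and 5287 at 0 h, 5116, 4629 and 5414 at 3 h, 4414, 4185 and 3964 at 6 h, and 3810, 4092 and 3915 at 12 h. The 6 and 12 h arrays all lay below the 0 h arrays. Its change was -0.27 at 6 h (limma adjusted p = 0.0919, not called) and -0.36 at 12 h (limma adjusted p = 0.0156). The 12 h call was lost with the set term (-0.39, adjusted p = 0.117) and after quantile normalization (-0.05, adjusted p = 0.701), and the value was -0.66 when each array was scaled to 1 trimmed mean.

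In rapamycin mice Cps1 read 5172, 6008 and 5723 at 0 h, 3143, 4112 and 4072 at 6 h, and 3072, 3559 and 4278 at 12 h. The arrays at 6 and 12 h lay below all 0 h arrays, while those at 3 h overlapped them. The change was -0.59 at 6 h and -0.64 at 12 h (limma adjusted p = 0.000728 and 0.000200), and after quantile normalization it was -0.31 and -0.33. The larger size in rapamycin mice was not called as a difference. The drug effect at 12 h minus that at 0 h was -0.28 (95% interval -0.61 to 0.04, limma adjusted p = 0.385). The rapamycin and vehicle arrays at 0 h are of different sets, so the sets enter that value.

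Ass1 (97521_at), which joins citrulline and aspartate, had a similar course. In vehicle mice it read 2312, 2085 and 2610 at 0 h, 2433, 2178 and 2527 at 3 h, 1980, 1802 and 1988 at 6 h, and 1740, 1904 and 1934 at 12 h. The 12 h arrays lay below the 0 h arrays, a separation not set against that of all probe sets. The 12 h change of -0.32 was not called (limma adjusted p = 0.0989). Scaled to 1 trimmed mean it was -0.63 and was called (adjusted p = 0.00349). In rapamycin mice it read 2391, 2642 and 2567 at 0 h, 1286, 2043 and 1929 at 6 h, and 1263, 1642 and 1973 at 12 h. It fell by 0.56 and 0.66 on the log2 scale (limma adjusted p = 0.0107 and 0.00240).

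The first rapamycin 6 h array and the first rapamycin 12 h array were the lowest of their groups for Cps1, Ass1 and Asl 104566_at. Without the first 6 h array the 6 h change of Ass1 was -0.35 (adjusted p = 0.108) and was no longer called. The 6 h call of Ass1 was also lost with the set term (-0.52, adjusted p = 0.0892).

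Otc (94414_at), which makes citrulline from carbamoyl phosphate and ornithine, did not change on refeeding by this test. In vehicle mice it read 824, 782 and 909 at 0 h, 873, 927 and 694 at 3 h, 839, 868 and 904 at 6 h, and 812, 860 and 1010 at 12 h, with overlap at every step. The 12 h value was 0.09 with vehicle (95% interval -0.19 to 0.37) and 0.15 with rapamycin (95% interval -0.13 to 0.43).

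The nonfasted mice had the highest Otc readings of all 33. These were 1270 and 1251 with vehicle and 1142 and 1182 with rapamycin, against at most 1010 in any fasted or refed mouse. Nonfasted against 0 h vehicle mice gave 0.59 (SE 0.15, limma adjusted p = 0.00517). The call was lost with the set term (0.53, adjusted p = 0.0948) and with scaling to 1 trimmed mean (0.38, adjusted p = 0.0595). The nonfasted vehicle arrays are of set 2, and the nonfasted rapamycin and vehicle 0 h arrays are of set 1. The part of the sets in the Otc difference was not tested.

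Tdo2, which catalyses the first step of tryptophan breakdown, was already called lower after 3 h of food in vehicle mice on both of its probe sets, as was Aass. The probe set 93827_at read 1385, 1445 and 1240 in vehicle mice at 0 h and 806, 747 and 712 after 3 h of food. It read 795, 707 and 734 at 6 h and 647, 592 and 747 at 12 h. All 9 refed vehicle arrays lay below all 3 at 0 h. The change was -0.84 at 3 h (SE 0.18, adjusted p = 0.00138), -0.86 at 6 h (adjusted p = 0.000857) and -1.04 at 12 h (adjusted p = 7.14e-05), with limma. From 3 to 12 h the change was -0.19 (95% interval -0.56 to 0.17, limma adjusted p = 0.526).

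The probe set 99269_g_at of Tdo2 read 3737, 4402 and 3742 at 0 h, 2958, 2549 and 2710 at 3 h, and 2274, 2287 and 2502 at 12 h in vehicle mice. It fell by 0.53 at 3 h and by 0.75 at 12 h on the log2 scale (limma adjusted p = 0.00937 and 0.000242). The 3 h falls of both probe sets were no longer called with the set term, at -0.86 (adjusted p = 0.0855) and -0.54 (adjusted p = 0.188), since the 0 h vehicle arrays are of set 1 and the 3 h vehicle arrays of set 2. The fall of 99269_g_at at 3 h was also lost without replicate 2 at 0 h (-0.45, adjusted p = 0.0548). In rapamycin mice 93827_at fell by 0.70 at 3 h (limma adjusted p = 0.0313), which was lost with the set term (adjusted p = 0.0627) and on leaving out 4 of the 6 arrays in turn. Those were replicates 2 and 3 at 0 h and replicates 1 and 2 at 3 h, and the change then ran from -0.75 to -0.60.

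Tdo2 and Aass moved together over the groups (r = 0.97 over 11 group means of log2 intensity, as a description of genes read on the same arrays). The windows around their annotated starts in RefSeq (build GRCm38.p6, 250 bases before to 50 after) are shown for that reason. Such windows were found for 5 of the 9 genes, the others being Otc, Ass1 and Hpd. Asl and Arg1, which had no window, were at r = 0.98 and 0.97 with Aass. The shared course was thus not particular to this pair. Motifs were searched on both strands, and matches are in capitals. They were the TATA box (TATAAA), the CCAAT box (CCAAT) and a C/EBP motif (TTGCNNAA). Parts of the cAMP element (TGACG) and of the glucocorticoid element (AGAACA) were searched too. None of these motifs overlapped another in either window.
Aass, chr6:23132937-23133236, minus strand: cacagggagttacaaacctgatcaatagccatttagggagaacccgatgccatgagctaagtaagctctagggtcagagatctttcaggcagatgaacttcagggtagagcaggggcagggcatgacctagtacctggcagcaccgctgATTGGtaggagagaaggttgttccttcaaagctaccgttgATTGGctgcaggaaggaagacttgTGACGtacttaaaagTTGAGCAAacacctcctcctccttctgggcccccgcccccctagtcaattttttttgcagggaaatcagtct
Tdo2, chr3:81975679-81975978, minus strand: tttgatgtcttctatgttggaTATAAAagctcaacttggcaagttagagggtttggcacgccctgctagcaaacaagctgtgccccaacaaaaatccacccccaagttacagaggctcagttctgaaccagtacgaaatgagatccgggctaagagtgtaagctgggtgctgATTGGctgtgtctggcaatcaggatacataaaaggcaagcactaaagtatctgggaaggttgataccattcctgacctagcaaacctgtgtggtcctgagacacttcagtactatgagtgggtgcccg

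Read on the opposite strand, ATTGG is CCAAT, which stood at -101 and -61 from the start of Aass and at -78 from that of Tdo2. The Aass window also held TGACG at -37 and TTGCNNAA, on the opposite strand, at -22, and the Tdo2 window held TATAAA at -229. Of 32851 windows of the same length, 37.4% held CCAAT, 20.8% TGACG, 10.8% TTGCNNAA, 13.6% TATAAA and 19% AGAACA. The windows of Otc, Ass1 and Hpd held none of the 5 motifs. A match describes letters and is not a binding site.

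Aass (103389_at), the first enzyme of lysine breakdown in mitochondria, read 1751, 2054 and 1651 in vehicle mice at 0 h and 1416, 1285 and 1329 at 3 h. It read 868, 1014 and 1165 at 6 h and 928, 966 and 1030 at 12 h. Each refed vehicle array lay below the 0 h arrays. The change was -0.43 at 3 h (SE 0.14, adjusted p = 0.0331), -0.84 at 6 h (adjusted p = 0.000124) and -0.90 at 12 h (adjusted p = 3.71e-05), with limma. The 3 h call was lost under 7 of 15 alternatives (adjusted p from 0.00224 to 0.327). Among these were the omission of replicate 1 or 2 at 0 h and of replicate 2 or 3 at 3 h, with values of -0.46 to -0.34. In rapamycin mice Aass read 1590, 1627 and 2111 at 0 h and 853, 842 and 1027 at 12 h, a change of -0.96 (limma adjusted p = 3.05e-05).

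Hpd and Dbt gave weak signals. Hpd (100620_at), whose enzyme acts on hydroxyphenylpyruvate, was called present on 17 of 33 arrays, and its readings ran from -45 to 102. It read 102, 41 and 69 in vehicle mice at 0 h, 21, 25 and 15 at 3 h, 39, 38 and -45 at 6 h, and -27, -33 and -3 at 12 h. At 12 h all 3 vehicle arrays were below 0, and at 0 h all 3 were above 30, the floor in the header of the authors' table. Against that floor Hpd was at least 2.20-fold lower at 12 h than at 0 h, and the same bound applied at 3 h. The bound rests on the 3 vehicle 0 h arrays, of set 1, while the 3 and 12 h arrays are of set 2. Uninjected fasted mice read lower, -13 to 51.3 (median 36), and nonfasted vehicle mice read -2 and 50. With the floor of 6.31 used for the main fit, the 12 h fall was called (limma adjusted p = 0.00316, and 0.256 with the set term). The 3 h difference was not called with that floor (limma adjusted p = 0.145), but it was with the floor of 30 (limma adjusted p = 0.00702).

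In rapamycin mice Hpd read 27, 22 and 70 at 0 h and 16, -23 and -12 at 12 h, and no fall was called (limma adjusted p = 0.0845). Dbt (98966_at) was called present on all 33 arrays but read only 29 to 104. In vehicle mice its 12 h change was -0.07 (95% interval -0.59 to 0.46) and in rapamycin mice -0.51 (95% interval -1.04 to 0.01, limma adjusted p = 0.142).

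**Figure D2:**
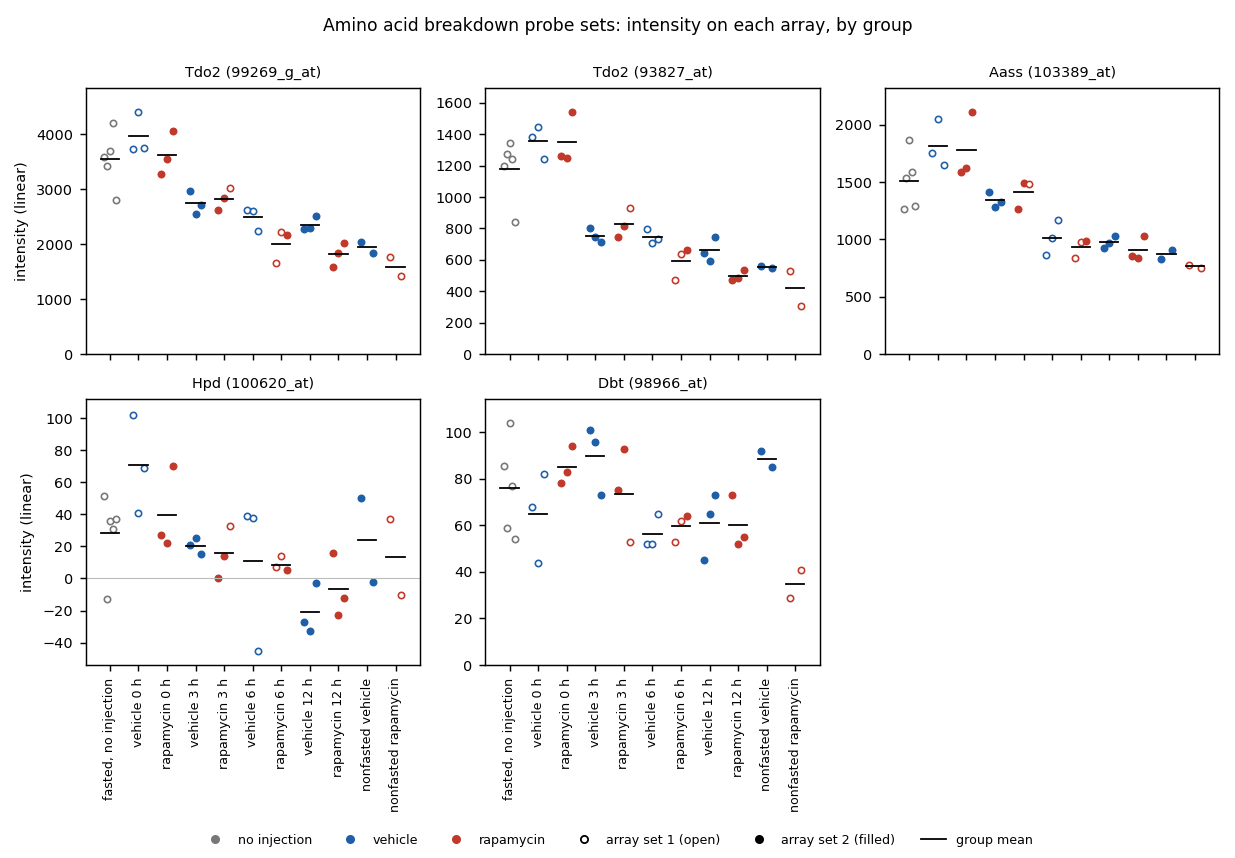
Intensity (linear scale, values below 0 kept) of the 5 amino acid breakdown probe sets on each of 33 arrays, by group; points are arrays, open for array set 1 and filled for set 2, and bars are group means. Both Tdo2 probe sets are lower in every refed vehicle array than at 0 h, and Hpd lies near 0 in most groups.

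Over all 6568 probe sets the median change at 12 h in vehicle mice was 0.24, and over the 11 it was -0.73, a difference of -0.98. That difference was -0.47 after quantile normalization and -1.03 with scaling to 1 trimmed mean. The split of all calls was 1705 higher and 611 lower as deposited, 1206 and 1019 after quantile normalization, 1111 and 1253 with the trimmed mean, and 632 and 391 with the set term.

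Of 88 with a mean intensity over 2000, 51.1% were called lower in vehicle mice (median -0.32, 10th percentile -0.61) and 37.5% in rapamycin mice (median -0.22, 10th percentile -0.65). With the set term the vehicle share was 26.1% (median -0.23). Cps1 at -0.36 and Ass1 at -0.32 in vehicle mice were near the median of that class. In rapamycin mice Cps1 at -0.64 and Ass1 at -0.66 were near its 10th percentile, and Arg1 at -0.80 and Tdo2 99269_g_at were beyond it. In vehicle mice Arg1 at -0.73 and Tdo2 99269_g_at at -0.75 were beyond the 10th percentile of that class. Of 448 probe sets between 500 and 2000 in mean intensity, 18.5% were called lower in vehicle mice at 12 h (median 0.05, 10th percentile -0.65), and 10.3% with the set term. Asl 104566_at, Aass and Tdo2 93827_at, at -0.98, -0.90 and -1.04, were beyond that percentile. These classes were chosen after seeing the data.

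Markers of hepatocytes and of some other cell types moved in the same comparisons, while those of Kupffer cells were not called. The summed intensity of 5 measured hepatocyte markers was 14177 to 15979 in vehicle mice at 0 h and 11975 to 12610 at 12 h. Of the 5, Alb, Apoa1 and Apob were called lower in vehicle mice at 12 h (-0.34, -0.46 and -0.43), Ttr was called higher (1.45) and Hnf4a was not called (-0.13, limma adjusted p = 0.621). With the set term Alb and Apoa1 were no longer called (adjusted p = 0.245 and 0.348). In rapamycin mice the sum was 14696 to 17226 at 0 h and 11728 to 13793 at 12 h. There Alb (-0.35), Apoa1 (-0.37), Apob (-0.79) and Hnf4a (-0.50) were called lower and Ttr (0.80) higher, also with the set term.

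Of the other cell types, the summed intensity of 4 endothelial markers was 214 to 247 at 0 h and 449 to 455 at 12 h in vehicle mice, and 247 to 261 and 401 to 468 in rapamycin mice, with 1 of 4 called higher in each. The sum of 4 stellate markers was 1347 to 1486 at 0 h and 941 to 1169 at 12 h in vehicle mice, and 1369 to 1597 and 1087 to 1324 in rapamycin mice. In vehicle mice 2 of the 4 were called higher and 1 lower, and in rapamycin mice 1 higher and 2 lower. The sum of 2 erythroid markers was 1064 to 3000 at 0 h and 683 to 811 at 12 h in vehicle mice, with 1 called lower, and 818 to 1121 and 1100 to 1272 in rapamycin mice. The sum of 8 Kupffer cell markers was 602 to 661 at 0 h and 624 to 649 at 12 h in vehicle mice. In rapamycin mice it was 602 to 792 and 623 to 932, and 0 of 8 were called at 12 h with either injection. The part of all these markers in the results above was not tested. In whole liver, fewer hepatocytes and less transcript per hepatocyte cannot be told apart.

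**Figure D3:**
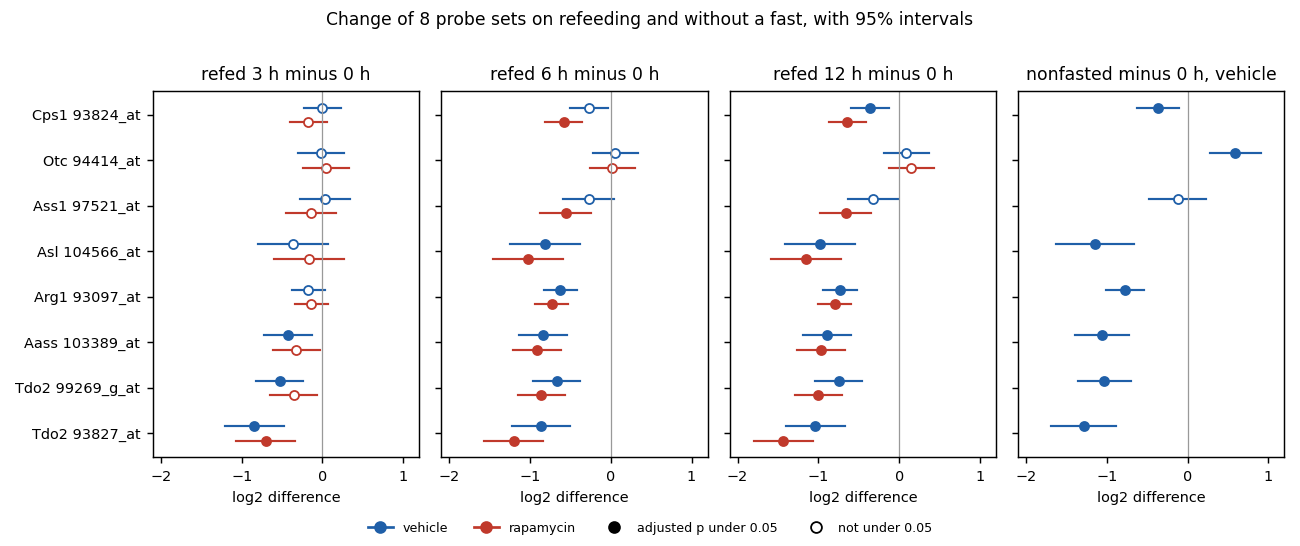
Log2 difference from 0 h (x axis) with its 95% interval for 8 probe sets after 3, 6 and 12 h of food and in nonfasted vehicle mice; vehicle is blue, rapamycin red, and filled points have an adjusted p under 0.05. Points for Asl, Arg1, Aass and Tdo2 lie left of 0 at 6 and 12 h with either injection, and Otc lies right of 0 in nonfasted mice.

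Rapamycin itself moved none of the 11 probe sets past the threshold in fasted or refed mice. With limma, 0 of 11 were called at 0 h and at 3, 6 and 12 h of refeeding, against 5.36%, 0.305%, 0.0152% and 0.32% of all probe sets. Trended robust limma also gave 0 at each time. At an unadjusted p under 0.05 the counts were 0, 0, 1 and 2 of 11, against 21%, 7.66%, 5.97% and 7.98% of all. The rapamycin and vehicle arrays at 0 h belong to different sets, so that comparison cannot be told apart from the sets.

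The 3 unadjusted results at 6 and 12 h were all from Tdo2. At 6 h 93827_at read 472, 637 and 664 with rapamycin and 795, 707 and 734 with vehicle, and at 12 h 473, 486 and 537 against 647, 592 and 747. The other probe set read 1652, 2211 and 2163 against 2620, 2609 and 2240 at 6 h, and 1585, 1833 and 2020 against 2274, 2287 and 2502 at 12 h. At both times every rapamycin array lay below every vehicle array on both probe sets. Of all probe sets, 4.4% at 6 h and 11.6% at 12 h were separated in that direction.

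For 93827_at the difference was -0.35 at 6 h (95% interval -0.71 to 0.01, limma adjusted p = 0.860) and -0.40 at 12 h (-0.77 to -0.04, adjusted p = 0.538). For 99269_g_at it was -0.32 (-0.61 to -0.03, adjusted p = 0.771) and -0.38 (-0.67 to -0.09, adjusted p = 0.420). None held after adjustment. At 3 h the sign was positive on both, 0.13 and 0.05, with overlapping arrays.

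For the urea cycle the intervals at 12 h, where both groups are of set 2, give the size of drug effect that these arrays leave possible. Arg1 differed by 0.02 (95% interval -0.19 to 0.22) and Otc by 0.02 (-0.26 to 0.30). Cps1 differed by -0.13 (-0.36 to 0.10), Ass1 by -0.22 (-0.53 to 0.10) and Asl 104566_at by -0.19 (-0.62 to 0.24). The only separation of arrays among these genes during refeeding was Asl at 3 h, with 1045, 944 and 1008 under rapamycin and 938, 797 and 910 under vehicle. That gave 0.18 (limma adjusted p = 0.903), and 3.49% of all probe sets were separated upwards.

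A direct test of whether refeeding acted differently under rapamycin called 0 of 11 probe sets (limma F-test over 3 interaction terms), against 1.31% of all. No member had an unadjusted F-test p under 0.05 either. The lowest adjusted p was 0.501, for Tdo2 93827_at. Each term subtracts the drug effect at 0 h, where rapamycin and vehicle arrays are of different sets, so the sets enter this test. With the set term it again called 0 of 11. A call under one injection and not the other, as for Ass1 at 6 and 12 h, was thus not shown to be a difference between injections.

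**Figure D4:**
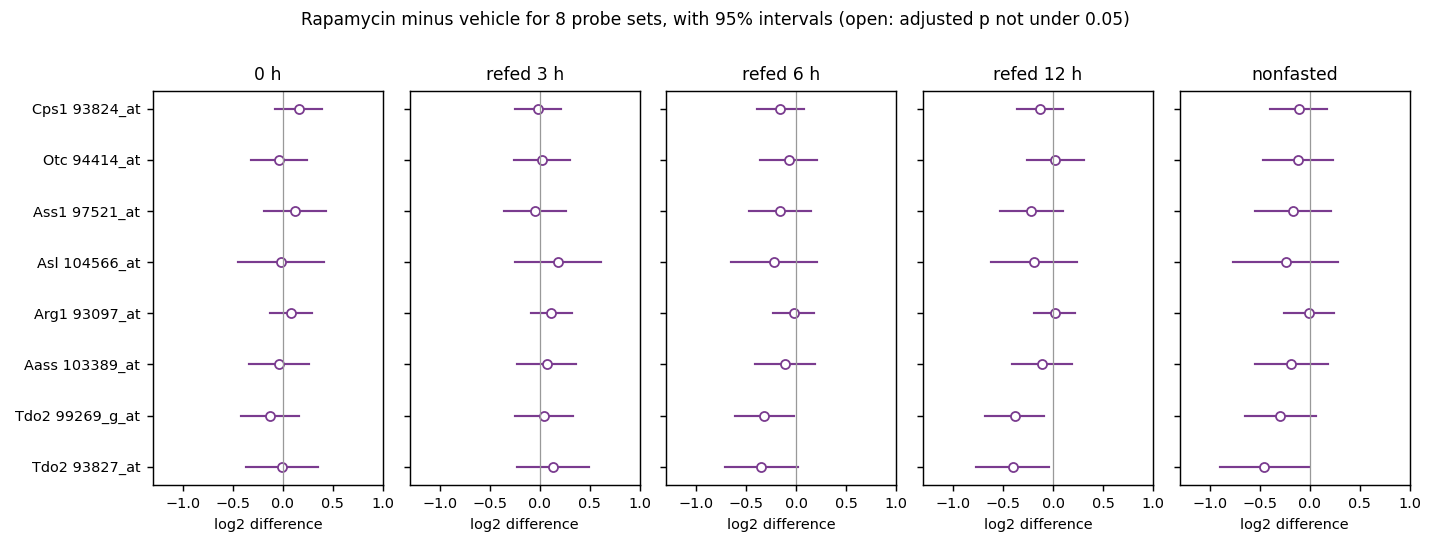
Rapamycin minus vehicle (log2 difference, x axis) with 95% intervals for 8 probe sets at 0, 3, 6 and 12 h and in nonfasted mice; open points did not pass the threshold. No point is filled, and the intervals of both Tdo2 probe sets at 12 h lie left of 0.

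In nonfasted mice 1 of 11 probe sets was called lower with rapamycin, against 1% of all called in either direction and 0.929% called lower. It was Dbt, which read 92 and 85 with vehicle and 29 and 41 with rapamycin, a change of -1.36 (SE 0.31, limma adjusted p = 0.0296). The call rested on few arrays of weak signal. It was lost with the set term (-0.95, adjusted p = 0.533) and without any of 3 of the 4 arrays, namely either vehicle array or the first rapamycin array (-1.42 to -1.11, adjusted p = 0.129 to 0.310). The sets and the injections coincide in these 4 mice and cannot be told apart.

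Tdo2 93827_at in nonfasted mice read 563 and 546 with vehicle and 531 and 308 with rapamycin, a difference of -0.46 (limma adjusted p = 0.385). In all, 7 of the 11 probe sets had both rapamycin arrays below both vehicle arrays, but 33.6% of all probe sets did too. The groups have 2 mice each and the sets coincide with the injections. The part of either in that share was not tested.

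Against fasted vehicle mice at 0 h, nonfasted vehicle mice had 6 of 11 probe sets lower and 1, Otc, higher. Over all probe sets 29.2% were called, 10.1% lower and 19.1% higher. Tdo2 93827_at fell by 1.29 on the log2 scale, Asl 104566_at by 1.15, Aass by 1.06 and Arg1 by 0.77, and these limma calls were kept under all 14 alternatives run. Cps1, with readings of 3975 and 3844, was at -0.37 (limma adjusted p = 0.0292), a call lost under 7 of the 14, among them the omission of replicate 2 or 3 at 0 h or of either nonfasted mouse (-0.39 to -0.34, adjusted p = 0.0619 to 0.150). Ass1, at 2129 and 2140, lay within the range of the 0 h mice (-0.12, 95% interval -0.47 to 0.23). In this comparison 5 of 8 measured Kupffer cell markers were called higher, 0 with the set term. Their summed intensity was 999 to 1330 against 602 to 661. The sum was 455 to 554 against 214 to 247 for endothelial markers (2 of 4 called higher, 1 with the set term) and 1068 to 1107 against 1347 to 1486 for stellate markers (2 higher and 2 lower of 4; 2 and 0 with the set term). Cela1, the 1 measured pancreas marker, read 120 to 133 against 15 to 39 and was called higher with and without the set term. The part of these markers in the results was not tested.

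The injection was examined in fasted mice. Vehicle mice at 0 h against uninjected fasted mice, all of set 1, gave 0 of 11 by limma, against 5.88% of all probe sets, and 2 of 11 at an unadjusted p under 0.05 (22.5% of all). These were Asl 104566_at and Aass. Asl read 725 to 946 (median 848) in the 5 uninjected mice, below all 3 vehicle mice, a difference of 0.42 (95% interval 0.03 to 0.81, adjusted p = 0.179). Of all probe sets, 4.57% were separated upwards.

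Ordered by group mean, Arg1 fell into 2 tiers with a gap between vehicle 3 h (3251 ± 232, SD, n = 3) and vehicle 6 h (2380 ± 191), whose arrays did not overlap. The fasted and 3 h groups made up the upper tier and the 6 h, 12 h and nonfasted groups the lower, with every pair of neighbours inside a tier overlapping. Cps1 had its only gap without overlap between the same tiers, from 4985 ± 231 in rapamycin 3 h to 4188 ± 225 in vehicle 6 h. For Aass the neighbours rapamycin 3 h (1413 ± 127) and vehicle 3 h (1343 ± 66.7) overlapped and vehicle 6 h (1016 ± 149) lay below. For Tdo2 93827_at the 0 h and uninjected groups (1357 ± 105 to 1180 ± 198) stood above rapamycin 3 h (831 ± 92.2), overlapping it only through 1 uninjected mouse that read 840.

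Over the 11 group means of log2 intensity, Cps1, Asl, Arg1, Aass and Tdo2 were correlated at r of 0.91 to 0.98 in every pair, and Otc with each of these at r of -0.67 to -0.57. These are descriptions, since all genes were read on the same arrays and the groups differ in array set. The single genes most like each member were Gfra1 for Arg1 (r = 0.99), Aass for Asl (0.98), Ahcy for Cps1 (0.97), Ctsc for Otc (0.97) and Pros1 for Ass1 (0.96). For the weak probe sets they were Trim11 for Hpd (0.89) and Tmem170 for Dbt (0.92).

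The wider set of amino acid breakdown genes did not move one way. Of 76 listed genes, 43 were on the array and 41 were tested. In vehicle mice 2 were higher and 3 lower than at 0 h after 3 h, 7 and 5 after 6 h, and 13 and 10 after 12 h. In rapamycin mice the counts were 2 and 0, 8 and 7, and 9 and 8. Of all probe sets 22.4%, 21.1% and 35.3% were called with vehicle and 2.79%, 20.8% and 25% with rapamycin. With the set term the counts were 0 and 1, 7 and 5, and 6 and 7 with vehicle, and 1 and 0, 4 and 3, and 9 and 8 with rapamycin. Of the named calls in vehicle mice, that term left only Cdo1 at 3 h, and at 12 h it removed Bcat2, Auh and Shmt2. The median change at 12 h was 0.17 with vehicle and 0.12 with rapamycin, beside 0.24 and -0.00 over all probe sets.

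Among those that fell with food was Tat, the first enzyme of tyrosine breakdown. Its intensity was 3551 ± 707 (SD, n = 3) in vehicle mice at 0 h and 1668 ± 290 at 12 h, a log2 change of -1.09 (limma adjusted p = 0.00103), and -1.57 in rapamycin mice (adjusted p = 3.46e-05). Cdo1, cysteine dioxygenase, was 2898 ± 87.5 at 0 h and 1494 ± 181 at 12 h in vehicle mice (-0.96). Mat1a, which makes S-adenosylmethionine, changed by -0.90 in the same comparison. Slc25a15, the mitochondrial ornithine carrier that serves the urea cycle, changed by -0.63 in rapamycin mice at 12 h, and Ahcy by -0.71.

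Other genes of the list rose. Glud1, glutamate dehydrogenase, which can release ammonia from glutamate, was 411 ± 17.3 at 0 h and 904 ± 48.4 at 12 h in vehicle mice, a log2 change of 1.14 (limma adjusted p = 6.40e-08). In rapamycin mice it was also 1.14 (adjusted p = 1.20e-07). Shmt1, a serine and glycine enzyme, rose by 1.68 with vehicle and 1.84 with rapamycin, and Gcsh of the glycine cleavage system by 1.01 with rapamycin. In vehicle mice the mean of Gcsh was 144 at 0 h, 225 at 6 h (0.65, limma adjusted p = 0.00239) and 260 at 12 h. Pcbd1, which recycles the cofactor of phenylalanine hydroxylation, rose by 0.99 with rapamycin. A gene named here or above with 1 injection only was not thereby shown to differ between injections.

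Rapamycin against vehicle called 0 of the 41 at 3, 6 and 12 h and in nonfasted mice. Of all probe sets only 0.305%, 0.0152%, 0.32% and 1% were called in these comparisons. At 0 h it called 1 of the 41, against 5.36% of all. This was Bcat2 (1.51, limma adjusted p = 0.0202, and 0.799 with the set term), which read 9.67 ± 3.21 in the vehicle mice and is near the floor. Glul, which fixes ammonia into glutamine, differed between vehicle 0 h and uninjected fasted mice (501 ± 108 against 260 ± 57.1, 0.95, limma adjusted p = 0.0143).

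**Figure D5:**
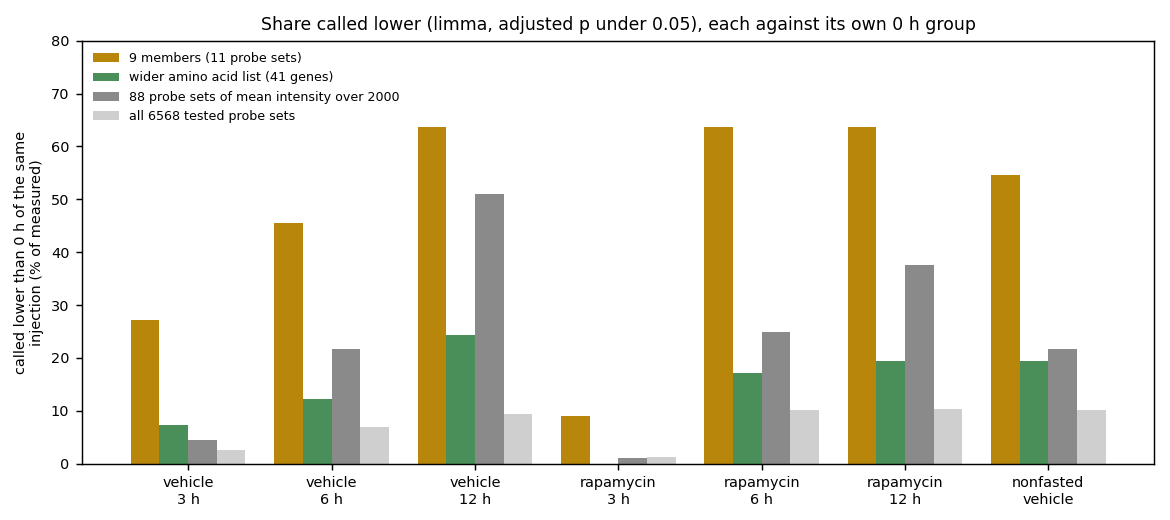
Share called lower than the 0 h group of the same injection (bars, percent of measured; nonfasted vehicle mice are set against vehicle 0 h) for the 11 member probe sets, 41 tested genes of the wider list, 88 bright probe sets and all 6568. At 12 h the members stand at 63.6% with either injection, bright probe sets at 51.1% and 37.5%, the wider list at 24.4% and 19.5%, and all probe sets at 9.3% and 10.4%; the vehicle values under the set term are 45.5%, 26.1%, 17.1% and 5.95%.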

How the data were processed

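The deposited intensity values are linear, keep values below 0, and were scaled by the authors on every array but the first, per the file headers. The other deposited per-probe entries used were the authors' detection calls (present, marginal or absent), counted over 33 arrays since they were not tied to single samples; 2989 to 5714 probe sets were present per array. A further 66 per-array columns were not used. Here the intensities were floored at 6.31 (0.1 of the mean of the arrays' means trimmed by 2% on each side) before log2 was taken. Left out were 66 control probe sets and any present on fewer than 3 arrays, which kept 6568 of 12488. Genes come from the platform annotation, which is old (10855 probe sets with 1 symbol, 396 with several, 1237 with none). Replicates are 1 array per mouse.

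One limma fit (version 3.58.1 in R 4.3.3) with 11 group means gave every difference, its SE and Benjamini-Hochberg adjusted p over 6568 probe sets (22 residual and 1.89 prior degrees of freedom), with a threshold of 0.05. Arrays were split into sets at 31% of values at or below 0. The script was also tested on simulated data. All probe sets of the 9 genes are named whatever their p. Of the wider list, up to 4 highest and 4 lowest called changes per comparison qualified for naming. The number of arrays limits the precision. The members and lists were chosen with earlier results of these data known. Sequences come from RefSeq, build GRCm38.p6; the build behind the probe annotation is not given in the sources used here.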

Additional observations from a re-analysis of the deposited data

How the results depend on the processing

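The counts of called probe sets at 6 and 12 h in vehicle mice and at 12 h in rapamycin mice stayed within 1.5 times under every alternative, as did those of nonfasted against 0 h vehicle mice. Counts at 3 h did not. In vehicle mice the 3 calls at 3 h became 1 after quantile normalization, 5 with scaling to 1 trimmed mean, 0 with the set term and 1 with only the groups compared. In rapamycin mice the 1 call at 3 h and, in nonfasted mice, the 1 call of Dbt became 0 with the set term and 0 with only the groups compared, and the 7 calls at 6 h became 4 with only the groups compared. A floor of 30 gave 1 call (Hpd, higher) for vehicle 0 h against uninjected mice, where there was none; it also brought the Hpd falls at 3 and 6 h in vehicle mice past the threshold. The causes were not tested.

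Leaving out each array in turn gave 1 to 3 calls at 3 h in vehicle mice (1 without replicate 2 at 0 h), 5 to 5 at 6 h and 7 to 7 at 12 h. It gave 0 to 1, 6 to 7 and 7 to 7 in rapamycin mice. Nonfasted against 0 h gave 6 to 7, rapamycin against vehicle 0 to 0 in fasted and refed mice and 0 to 1 in nonfasted mice, and the interaction test 0 to 0. Vehicle 12 h against 3 h, called for Cps1, Arg1 and Aass (3 of 11, against 11% of all), gave 1 to 2. A group left with 1 array was taken to vary like the others. No called difference changed sign under the alternatives run, while some that were not called did, such as Hpd in rapamycin against vehicle mice at 0 h (-0.93, and 0.30 with the set term).

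Same-numbered arrays showed no large shared deviation (correlations from -0.43 to 0.21). Of 36 pairs of groups, 0 had all correlations over 0.1, and in 2 each array matched its own number best. This does not show whether mice of the same number were matched. With a replicate block, Cps1 was no longer called in nonfasted against 0 h vehicle mice (-0.34, adjusted p = 0.0524) or in 12 against 3 h (-0.36, adjusted p = 0.0506), and no other call of the 11 was lost. The set term rests on 6 arrays of 2 groups. Hpd, Dbt and Asl 161891_r_at lie near background, where log2 changes depend on the floor.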
